A study of Triticum polonicum with 10 samples.

Results

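Among the 274924 gene IDs counted in roots of dwarf Polish wheat, 9421 carry the letter U in place of a chromosome name (TraesCSU01G), the mark of sequence that bread wheat's assembly did not place on a chromosome. Of these, 179 had a mean of at least 5 CPM (counts scaled to the library's total count) over all 10 libraries, and they are described here as the expressed unplaced IDs. A total of 151 have no suffix and 28 carry the suffix LC. The members were chosen by their mean CPM over these libraries, so their levels are a description. That the IDs lie on unplaced scaffolds rests on the ID pattern alone, because the files give no coordinates.

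Roots of 4-week-old seedlings were collected after 1 week of treatment, and each of the 10 treatments has 1 library. The treated groups were 200 µM Fe2(SO4)3, 3 further Fe2(SO4)3 libraries, 80 µM CdCl2 alone, 50 µM FeCl3 with 80 µM CdCl2, 50 µM FeCl3 alone, 200 µM FeCl3 with 80 µM CdCl2 and 200 µM FeCl3 alone, and the control group received none of these salts. The 3 further Fe2(SO4)3 libraries have a title code and a treatment text that conflict: the library coded B50CK is described as 200 µM with cadmium, the library coded B50Cd as 50 µM without it, and the library coded B200Cd as 50 µM with it. They were used by their iron salt and are named by their codes. Although 3 biological replicates are stated for each treatment, the sources used here do not say whether a library pools them. The p-values therefore measure only the spread between these libraries, which may be technical in part. As each library is a different treatment, that spread also holds treatment differences. In the cadmium and iron fit these are cadmium effects that differ with iron supply, and in the salt comparison the effects of dose and cadmium. No table names the IDs, so root markers were not checked and no ID is given a function.

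Polish wheat is a tetraploid with the A and B subgenomes, and bread wheat, whose IDs these are, also has D. Scaffolds stay unplaced mostly where sequence is repetitive or closely duplicated, so a gene on one can be a near copy of a gene placed elsewhere. LC marks gene models of low confidence, which often lack a protein match and include fragments and transposon remnants. Cadmium is a toxic metal that plants take up partly through iron transporters, and the study set it beside iron fertilisers of different chemical form. How reads that match several copies were counted is not given, so the count of any ID with a near copy is uncertain.

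Expressed IDs were a small share of the unplaced IDs. Of the 2729 unplaced IDs without LC, 1043 (38.2%) had a count in at least 1 library and 151 (5.53%) reached 5 CPM. Of the 6692 with LC, 1035 (15.5%) had a count and 28 (0.418%) reached 5 CPM. The share reaching 5 CPM was 29.7% without LC and 1.75% with LC in subgenome A, and 29.5% and 2.09% in B. In subgenome D, which Polish wheat does not have, it was 1.13% without LC and 0.0726% with LC, so on this share the unplaced IDs stood between D and the subgenomes present in this plant. The share with a count did not follow that order without LC, since it was 40.5% in D, above the 38.2% of the unplaced IDs.

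Members were more frequent among low ID numbers. Among IDs without LC, 112 of the 999 numbered below 100000 (11.2%) were members, against 39 of 1730 from 100000 upward (2.25%). Among LC IDs the counts were 9 of 999 (0.901%) and 19 of 5693 (0.334%).

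FPKM divides by gene length as well as library total, so levels of different IDs are compared on it. Members without LC had a median of mean FPKM of 11.9 (quartiles 6.10 and 36.5, range 1.48 to 2509). LC members had a median of 16.5 (quartiles 8.65 and 34.1, range 2.37 to 584). The median length that CPM and FPKM imply was 1310 bp without LC and 754 bp with LC. In CPM the medians were in the other order, 15.2 without LC and 9.70 with LC.

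**Figure D1:**
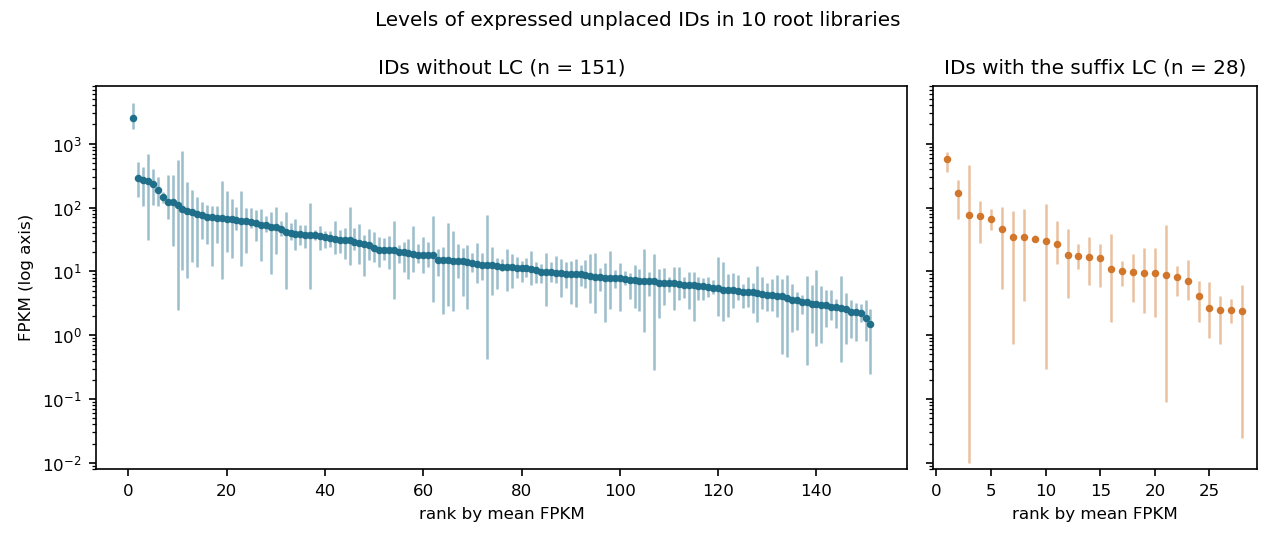
FPKM (log axis) of each expressed unplaced ID, ranked by its mean over 10 libraries, with the 151 IDs without LC on the left and the 28 LC IDs on the right; points are means and lines run over the lowest to the highest library, with values of 0 drawn at 0.01. TraesCSU01G021600 stands highest at 2509 FPKM, and the widest line on the right is that of TraesCSU01G121800LC, whose lowest value is 0 and highest 471 FPKM.

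TraesCSU01G021600 (795 bp) was the most abundant member. Its CPM was lowest in the library coded B50CK (1354), had a median of 1760 and was highest in the control (3419.9), and it alone held 0.135% to 0.342% of a library's counts. The other high members without LC were TraesCSU01G081000, with a mean of 290 FPKM (lowest 146, median 246, highest 516), TraesCSU01G137300 with 270 (107, 262, 430), TraesCSU01G049400 with 261 (31.3, 189, 694) and TraesCSU01G005100 with 235 (109, 220, 404). The ranges of these 4 overlapped, so their order by mean is within their spread over libraries. TraesCSU01G049400 is implied to be 171 bp long, the shortest length among members without LC.

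TraesCSU01G084600LC was the most abundant LC member, with a mean of 584 FPKM (lowest 365, median 564, highest 737). All 10 of its values lay above all 10 of TraesCSU01G657500LC, whose mean was 169 FPKM (65.6, 162, 272). TraesCSU01G121800LC had a mean of 76.2 FPKM that rested on few libraries (lowest 0, median 12.5, highest 471). TraesCSU01G037300LC averaged 74.3 FPKM (27.7, 72.4, 126) and TraesCSU01G120200LC averaged 67.2 FPKM (45, 62.4, 94.9), and their ranges overlapped.

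At the threshold, TraesCSU01G136000 (mean 5.11 CPM) and TraesCSU01G075500LC (5.42 CPM) were just inside. TraesCSU01G250200 (4.99 CPM) and TraesCSU01G259400LC (4.88 CPM) were just outside.

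Together the members held 0.622% of counts in the 200 µM Fe2(SO4)3 library (95% Wilson interval 0.619% to 0.626%, counting error only) and 0.963% in the control (0.958% to 0.968%), with the other libraries at up to 0.801%. Without TraesCSU01G021600 the range narrowed to 0.470% to 0.621%. The LC members held 0.0614% to 0.0805%. Libraries held 13635628 to 19320820 counts, 3 counts in a library correspond to 0.155 to 0.220 CPM, and 178 members had a count in every library. The control was the lowest library for 48 members (26.8%) and the highest for 32 (17.9%), against 25.2% and 20.1% of all 25616 IDs of at least 5 CPM, so these shares lay near those of the whole table.

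**Figure D2:**
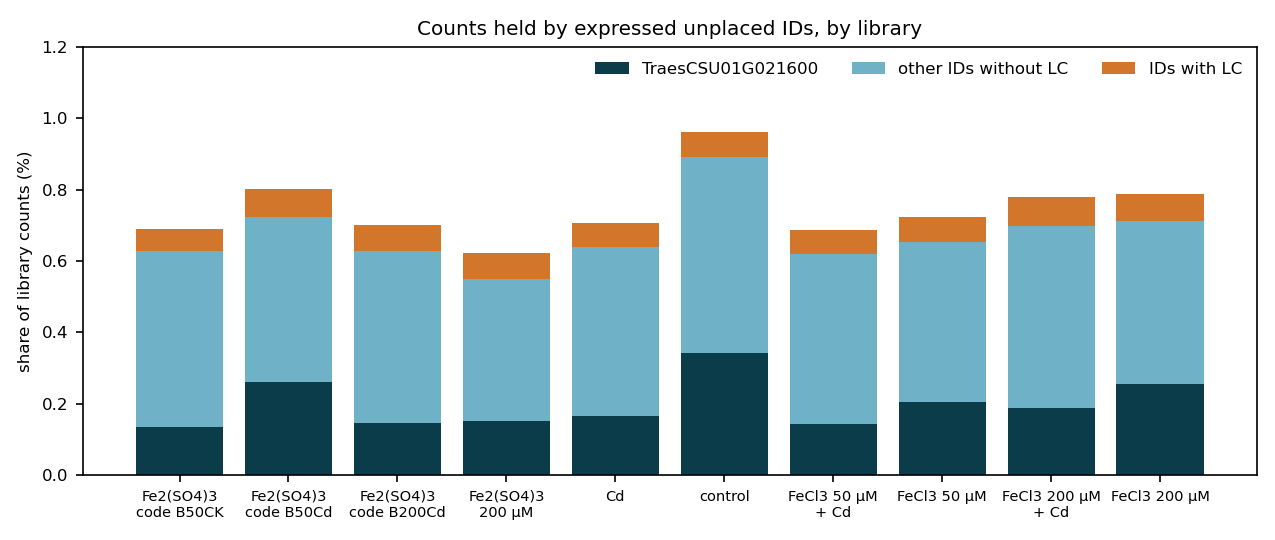
Share of each library's counts (%) held by TraesCSU01G021600, by the other expressed unplaced IDs without LC and by those with LC, 1 bar per library with no error bar. The control bar is the tallest at 0.963%, and the 200 µM Fe2(SO4)3 bar the lowest at 0.622%.

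The spread over libraries was set beside that of A and B IDs that also reached 5 CPM. The median ratio of the highest to the lowest library, on CPM + 0.5, was 3.52 for members without LC and 4.73 for LC members. It was 2.89 and 3.46 in subgenome A, and 2.86 and 3.36 in B. At least 10-fold was reached by 23 members without LC (15.2%) and 8 LC members (28.6%), against 8.40% and 11.2% in A and 8.32% and 8.59% in B. These shares are a description with no test. Staying under 2-fold were 23 members without LC (15.2%) and 1 LC member (3.57%), against 19.8% and 9.81% in A and 20.4% and 8.26% in B.

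TraesCSU01G210100 varied most among members without LC. It had 328 CPM in the control, 106 in the library coded B50CK and 96.1 with 50 µM FeCl3, against 1.48 CPM with 200 µM Fe2(SO4)3 and 1.64 in the library coded B50Cd. TraesCSU01G036600 had 127 CPM in the library coded B50CK and 0.705 CPM in the library coded B50Cd, and its second highest value was 39.4 CPM with 200 µM FeCl3. Among LC members, TraesCSU01G121800LC had 91.9 CPM (1599 counts) with 200 µM FeCl3 and cadmium, 4.31 to 36.6 CPM in the 4 Fe2(SO4)3 libraries, 0.569 CPM with cadmium alone and 1 count in the control. It had no count in the other 3 FeCl3 libraries, where the floor of 3 counts corresponds to 0.165 to 0.210 CPM. TraesCSU01G336000LC had 68.9 CPM with 200 µM FeCl3 and 53.5 CPM in the control, against 0.177 CPM (3 counts) with 200 µM Fe2(SO4)3.

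At the other end, TraesCSU01G080700 stayed within 43.3 to 62.5 CPM and TraesCSU01G079600 within 30.1 to 46.0 CPM. TraesCSU01G132000LC stayed within 8.93 to 11.8 CPM and TraesCSU01G084600LC within 118 to 239 CPM.

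Profiles of members with consecutive ID numbers (a step of 100) were set beside those of other members. Over 10 libraries the median Pearson r of log2(CPM + 0.5) was 0.365 for the 30 consecutive pairs and 0.0149 for the 11673 other pairs of the same class. Of consecutive pairs 4 (13.3%) exceeded 0.8, against 2.04% of the others. They were TraesCSU01G093000 with TraesCSU01G093100 (r = 0.865), TraesCSU01G049400 with TraesCSU01G049500 (0.831), TraesCSU01G081900 with TraesCSU01G082000 (0.812) and TraesCSU01G001400 with TraesCSU01G001500 (0.801). Consecutive pairs of the A and B subgenomes had a median r of 0.181 over 8422 pairs, of which 7.99% exceeded 0.8. The pairs share libraries and depth, and neighbouring copies can share reads, so r is given as a description.

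**Figure D3:**
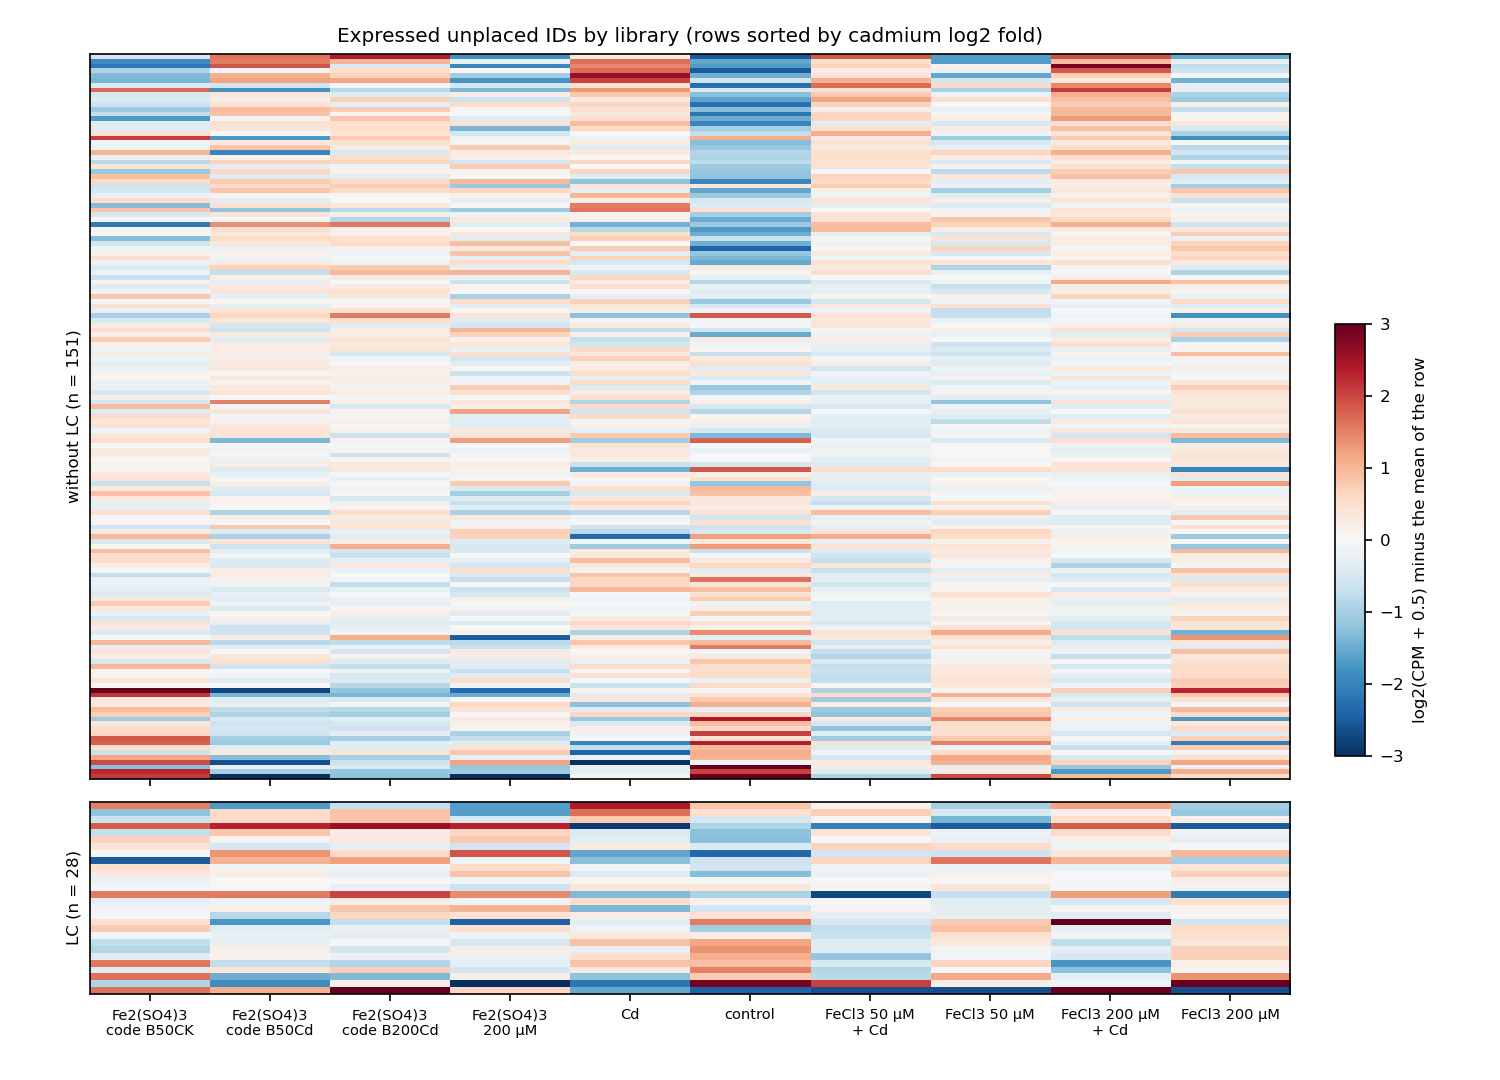
Level of each expressed unplaced ID (rows, IDs without LC above LC IDs) in each of 10 libraries (columns), as log2(CPM + 0.5) minus the mean of the row, with rows sorted by the cadmium log2 fold and the ID outside that fit last. The control column holds many of the deepest colours in both directions, being lowest for 48 members and highest for 32.

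The effect of cadmium was asked in 3 pairs of libraries, each with against without 80 µM CdCl2 at no iron salt, 50 µM FeCl3 or 200 µM FeCl3. No member passed the test, and the response of the members was centred near 0. In all 3 pairs 7 members were at least 2-fold higher with cadmium and 1 was at least 2-fold lower. By the same rule 2.24% of IDs of at least 5 CPM were higher and 0.945% lower. Of the 178 members tested, 0 passed an adjusted p of 0.05 (edgeR's quasi-likelihood test, Benjamini-Hochberg over 55236 IDs), as for 0% of all IDs tested, and the smallest adjusted p of any ID was 0.113. TraesCSU01G121800LC did not pass the filter on low counts. In bulk roots, fewer cells of a type and less RNA per cell cannot be told apart. An unadjusted p under 0.05 was reached by 38 members (21.3%), against 12% of all IDs tested and 13.5% of those of at least 5 CPM. Of the 38, 27 were higher and 11 lower with cadmium, where IDs of at least 5 CPM gave 8.99% higher and 4.55% lower. They comprised 23 higher and 7 lower without LC (15.2% and 4.64% of 151 tested). With LC they were 4 higher and 4 lower (14.8% and 14.8% of 27 tested). Shares of all IDs with and without LC are not given, so the classes are not compared. The median log2 fold change was 0.06 without LC, -0.02 with LC and 0.00 over all IDs of at least 5 CPM.

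DESeq2 on the same libraries called 15 members (12 higher, 3 lower), 8.43% of those tested, against 4.29% of all IDs and 5.15% of those of at least 5 CPM. Without the cadmium library edgeR called 10 members (4.74% of IDs of at least 5 CPM), and without the control it called 14 (5.9% of those IDs), and each of these leaves only the pairs at 50 and 200 µM FeCl3 to compare. With no low-count filter 19 members were called by edgeR, where 6.84% of IDs of at least 5 CPM were called, without the iron term 0 (0.0273%), and limma on log2(FPKM + 1) called 1 (0.0859%). Adding the Fe2(SO4)3 libraries gave 12 calls by title code (3.33% of IDs of at least 5 CPM) and 0 by treatment text (0% of those IDs).

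TraesCSU01G051900 had 78.7, 230 and 243 CPM in the libraries with cadmium (at no iron salt, 50 and 200 µM FeCl3), against 10.8, 19.9 and 22.0 CPM in their counterparts. The groups did not overlap, and the ratios of CPM + 0.5 were 7.02, 11.3 and 10.8. Its log2 fold change of 3.35 ± 0.39 (SE) had an adjusted p of 0.113 by edgeR's quasi-likelihood test with Benjamini-Hochberg adjustment. It passed at 0.05 with DESeq2 (adjusted p = 1.69e-11), without a filter on low counts, with limma on log2(FPKM + 1), with the Fe2(SO4)3 libraries added by title code (adjusted p = 0.00642), and without the cadmium library or the control. It did not pass with those libraries added by treatment text, where its log2 fold change was 2.39 ± 0.54. Its adjusted p there of 0.850 by edgeR was the highest over all alternatives. By edgeR it also did not pass with DESeq2's size factors (adjusted p = 0.120), a filter of 1 CPM in 2 libraries (0.119) or no iron term (0.0865). With limma on log2(FPKM + 0.1) its adjusted p was 0.0528. With any FeCl3 library left out it again did not pass. Its Fe2(SO4)3 values were 199 CPM in the library coded B50Cd, 337 in B200Cd, 43.2 in B50CK and 17.7 at 200 µM without cadmium. It was the only member at least 4-fold higher in all 3 pairs, where 0.445% of IDs of at least 5 CPM were.

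TraesCSU01G361500LC had 29.1, 5.68 and 12.5 CPM in the cadmium libraries, against 9.46, 2.31 and 2.25 CPM in the libraries without it. It was higher in each pair, although the groups overlapped across iron supplies (log2 fold change 1.84 ± 0.40, adjusted p = 0.178 by edgeR). Lower with cadmium in each pair was TraesCSU01G604100LC, at 2.69, 3.71 and 5.63 CPM in the cadmium libraries, against 12.3, 15.9 and 18.2 CPM in the libraries without it. Its groups did not overlap (log2 fold change -1.93 ± 0.35, adjusted p = 0.146 by edgeR). TraesCSU01G072600 had 4.76, 3.57 and 3.79 CPM in the cadmium libraries, against 12, 13.2 and 8.05 CPM in the libraries without it, with no overlap (log2 fold change -1.38 ± 0.35, adjusted p = 0.224 by edgeR). By edgeR without the cadmium library or without the control, TraesCSU01G361500LC passed at adjusted p of 0.0413 and 0.0235, and TraesCSU01G604100LC at 0.0370 and 0.0306. TraesCSU01G072600 passed in neither. None of the IDs of this paragraph passed with any FeCl3 library left out. With the Fe2(SO4)3 libraries added by title code, the log2 fold changes of TraesCSU01G361500LC, TraesCSU01G604100LC and TraesCSU01G072600 were 0.93, -2.14 and -1.52 (adjusted p = 0.605, 0.0140 and 0.0425 by edgeR). By treatment text TraesCSU01G361500LC had 2.03, TraesCSU01G604100LC -0.91 and TraesCSU01G072600 -0.53 (adjusted p = 0.850, 0.942 and 0.982 by edgeR).

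The 7 members at least 2-fold higher in every pair (5 without LC, 2 with LC) made 3.91% of members, where 2.24% of all IDs of at least 5 CPM were. Their log2 fold changes lay between 1.33 and 3.35. The 1 lower in every pair was TraesCSU01G604100LC, 0.559% of members, where 0.945% of IDs of at least 5 CPM were. By pair, 43 members were at least 2-fold higher and 31 lower with cadmium at no iron salt (19.1% and 12.1% of IDs of at least 5 CPM). At 50 µM FeCl3, 15 members were higher and 20 lower, where 7.8% and 8.45% of IDs of at least 5 CPM were. At 200 µM FeCl3, 39 members were higher and 22 lower, where 10.9% and 9.59% of those IDs were. The direction reversed with iron in TraesCSU01G072000 and TraesCSU01G137500 (2 of 179 members), named after their values were seen. Each was at least 2-fold lower with cadmium at no iron salt and at least 2-fold higher at both FeCl3 doses. TraesCSU01G137500 had 31.3 CPM with cadmium alone against 270.1 CPM in the control, but 100.3 against 45.9 CPM at 50 µM FeCl3 and 68.4 against 20.7 CPM at 200 µM. TraesCSU01G072000 had 5.64 against 14.0 CPM, 7.78 against 2.80 CPM and 11.3 against 1.43 CPM in the same order. This pattern was held by 0.535% of IDs of at least 5 CPM, and the opposite pattern is not described here. The difference between pairs was not tested, with 1 library on each side.

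**Figure D4:**
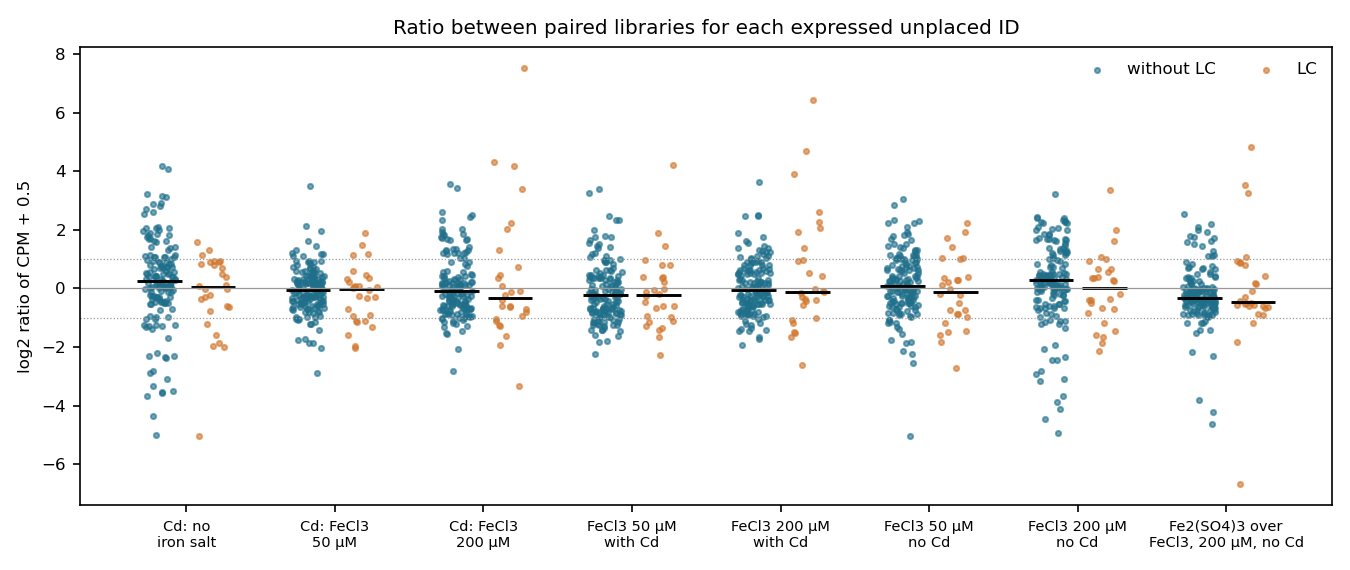
log2 ratio of CPM + 0.5 between paired libraries for each expressed unplaced ID: with over without cadmium at no iron salt, 50 µM and 200 µM FeCl3, then each FeCl3 dose over no iron salt with and without cadmium, then Fe2(SO4)3 over FeCl3 at 200 µM without cadmium. Blue points are IDs without LC, orange points LC IDs, black bars medians and dotted lines a 2-fold ratio. The medians without LC in the cadmium pairs are 0.27, -0.06 and -0.10, and the SD over these IDs is 1.58, 0.81 and 1.06.

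The effect of iron supply was asked with the 4 FeCl3 libraries against the 2 without iron salt, in the same fit with cadmium as a term. No member passed the test here either. In all 4 pairs 3 members were at least 2-fold higher with FeCl3 and 2 LC members at least 2-fold lower. By the same rule 1.53% of IDs of at least 5 CPM were higher and 0.867% lower. Of 178 members 0 passed an adjusted p of 0.05 by edgeR, as for 0% of 55236 IDs, with 0.333 as the smallest adjusted p of any ID. An unadjusted p under 0.05 was reached by 38 members (21.3%), against 11.7% of all IDs and 14.5% of those of at least 5 CPM. Higher were 25 and lower 13, where IDs of at least 5 CPM gave 9.03% and 5.52%. Without LC 21 were higher and 7 lower of 151 tested, and with LC 4 higher and 6 lower of 27 tested. The classes are again not compared, as shares of all IDs by class are not given. The median log2 fold change was 0.07 without LC, 0.23 with LC and 0.01 over all IDs of at least 5 CPM. DESeq2 called 9 members, 5.06% of those tested, against 2.17% of all IDs and 3.31% of those of at least 5 CPM. The count of edgeR calls was 11 without a filter on low counts (4.75% of IDs of at least 5 CPM). It was 20 without the cadmium library (10% of IDs of at least 5 CPM) and 4 without the control (2.15% of those IDs), and each of these leaves 1 library without iron salt.

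TraesCSU01G035900 had 26.9 and 14.4 CPM with 50 µM FeCl3 (with and without cadmium) and 21.3 and 14.3 CPM with 200 µM, against 7.50 and 4.25 CPM with no iron salt. The groups did not overlap (log2 fold change 1.82 ± 0.34, adjusted p = 0.333 by edgeR), and the 4 Fe2(SO4)3 libraries held 26.7 to 35.8 CPM. TraesCSU01G110600LC had 4.76 and 4.56 CPM with 50 µM FeCl3 and 9.59 and 15.1 CPM with 200 µM. With no iron salt it had 2.17 and 1.03 CPM (log2 fold change 2.38 ± 0.47, adjusted p = 0.333 by edgeR). The log2 fold change was 2.91 ± 0.58 without the cadmium library and 1.96 ± 0.53 without the control. Its Fe2(SO4)3 values were 7.0 to 28.3 CPM.

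Lower with FeCl3 was TraesCSU01G049100, at 18.4 and 19.4 CPM with 50 µM FeCl3 and 18 and 17 CPM with 200 µM, against 36.3 CPM with cadmium alone and 72.5 CPM in the control (log2 fold change -1.45 ± 0.41, adjusted p = 0.355 by edgeR). Its log2 fold change was -2.10 ± 0.36 without the cadmium library (adjusted p = 0.0114 by edgeR) and -0.66 ± 0.37 without the control (adjusted p = 0.457 by edgeR). TraesCSU01G361500LC, higher with cadmium above, had 5.68, 2.31, 12.5 and 2.25 CPM with FeCl3. With no iron salt it had 29.1 and 9.46 CPM (log2 fold change -1.79 ± 0.39, adjusted p = 0.333 by edgeR). The log2 fold change was -2.13 ± 0.50 without the cadmium library and -1.43 ± 0.45 without the control. It was lower in each of the 4 pairs, and the 12.5 CPM of 200 µM FeCl3 with cadmium overlapped the control. Both comparisons of this ID use the same 6 libraries.

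The 3 members at least 2-fold higher in all 4 pairs, TraesCSU01G035900 among them, made 1.68% of members, where 1.53% of IDs of at least 5 CPM were. The 2 lower, TraesCSU01G361500LC and 1 other LC member, made 2 of 179, where 0.867% were. With TMM library sizes these counts were 6 and 0, where 1.91% and 0.523% of IDs of at least 5 CPM were called. With each dose alone 0 members passed by edgeR, as for 0% of all IDs. DESeq2 called 4 at 50 µM FeCl3 (2.48% of IDs of at least 5 CPM) and 2 at 200 µM (1.3%). In single pairs with cadmium, 23 members were at least 2-fold higher and 32 lower with 50 µM FeCl3 (10.3% and 14.2% of IDs of at least 5 CPM), and 29 higher and 20 lower with 200 µM (9.29% and 8.73%). Without cadmium, 39 members were higher and 21 lower with 50 µM, where 14.9% and 10.5% of IDs of at least 5 CPM were. With 200 µM, 44 members were higher and 27 lower, where 21.3% and 13.2% of those IDs were. The pairs with cadmium share the library with cadmium alone, and those without cadmium share the control.

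**Figure D5:**
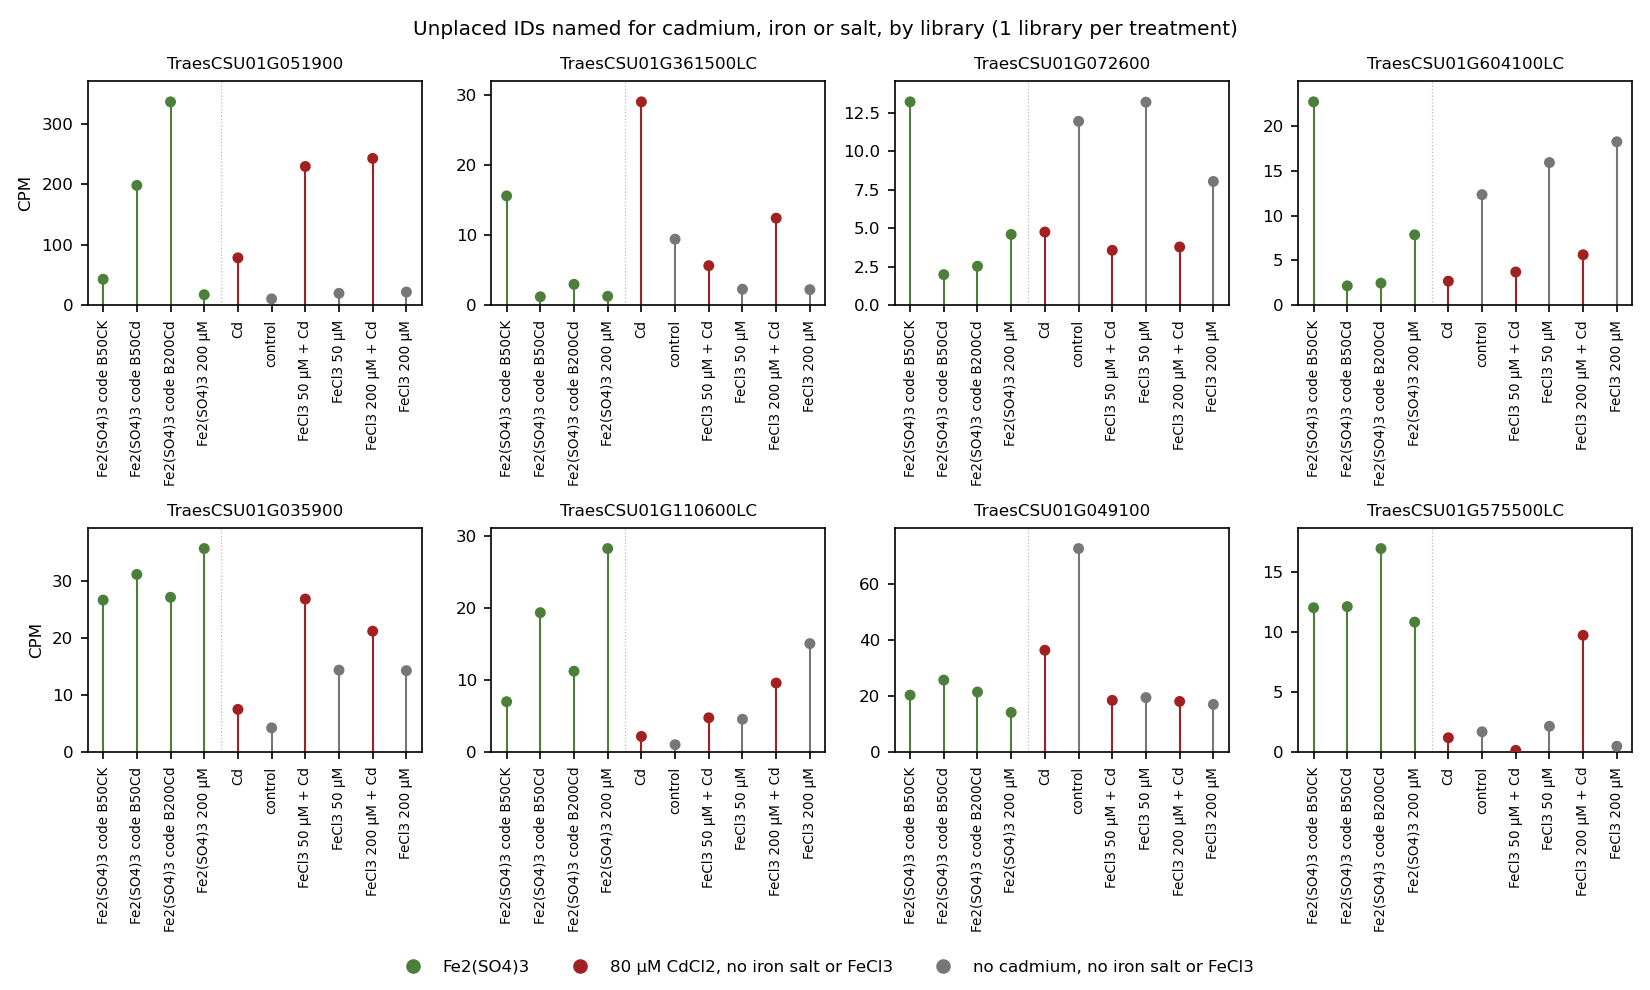
CPM in each library of the members named for cadmium, iron or salt, 1 panel per ID with its own axis from 0 and 1 point per library. Green points are Fe2(SO4)3 libraries; red points have cadmium and grey points do not, each with no iron salt or FeCl3. TraesCSU01G051900 lies at 78.7 to 243 CPM with cadmium and at 10.8 to 22.0 CPM without it among the red and grey points.

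The salts were compared with 4 Fe2(SO4)3 against 4 FeCl3 libraries. Equal doses of the salts carry different amounts of iron, so the form of the salt and the amount of iron cannot be told apart. No member passed the test, and 1 had levels that did not overlap between the salts. Among IDs of at least 5 CPM, 0.921% were higher with sulfate without overlap and 0.66% lower. Of 179 members 0 passed an adjusted p of 0.05 by edgeR, as for 0% of 50484 IDs, with 0.999 as the smallest adjusted p, and DESeq2 also called 0 members (0.0337% of all IDs). An unadjusted p under 0.05 was reached by 5 members (2.79%), against 3.57% of all IDs and 3.26% of those of at least 5 CPM. All 5 were lower with sulfate, 3 without LC and 2 with LC. The share of all IDs in each direction is not given here, so the direction is not read as a result about the members. The median log2 fold change was -0.07 without LC, -0.04 with LC and -0.02 over all IDs of at least 5 CPM. Leaving out the library with 200 µM FeCl3 and cadmium gave 1 call by edgeR, TraesCSU01G283400LC (named after its values were seen), which was the only ID of the whole table called there (0.00194% of IDs tested).

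TraesCSU01G575500LC (195 bp) had 12, 12.1, 16.9 and 10.8 CPM with Fe2(SO4)3, in the libraries coded B50CK, B50Cd and B200Cd and at 200 µM. With FeCl3 it had 0.140 and 2.14 CPM at 50 µM (with and without cadmium) and 9.71 and 0.477 CPM at 200 µM. The groups did not overlap, at 13.0 ± 2.71 CPM with sulfate and 3.12 ± 4.48 CPM with chloride (SD, n = 4 each), where 0.921% of IDs of at least 5 CPM were higher with sulfate without overlap and 0.66% lower. Its log2 fold change was 1.97 ± 0.91 (adjusted p = 0.999 by edgeR). Without the library with 200 µM FeCl3 and cadmium it was 3.73 ± 0.72 (adjusted p = 0.999 by edgeR). With any other library left out it lay between 1.59 and 2.05. The cadmium and control libraries, with no iron salt, had 1.19 and 1.69 CPM.

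At 200 µM without cadmium the labels of both salts are not in doubt, with 1 library on each side and no test. With sulfate 20 members were at least 2-fold higher and 15 lower than with chloride (11.2% and 8.38%, against 6.41% and 7.13% of IDs of at least 5 CPM). At 4-fold there were 7 higher and 6 lower (3.91% and 3.35%, against 0.796% and 0.601%). Of the 7 higher, 3 were LC members, among them TraesCSU01G283400LC at 21.5 CPM with sulfate against 0.273 CPM with chloride. TraesCSU01G283400LC also had 14.9 to 25.6 CPM in the other Fe2(SO4)3 libraries and 15 CPM with 200 µM FeCl3 and cadmium. It had 0.104 to 1.83 CPM in the other 4 libraries. Its log2 fold change over all 8 libraries of both salts was 2.28 ± 1.11 (adjusted p = 0.999 by edgeR). Without the library with 200 µM FeCl3 and cadmium it was 5.74 ± 0.45 (adjusted p = 0.0291 by edgeR). With any other library left out it lay between 1.89 and 2.43. TraesCSU01G336000LC, described above, had the widest ratio of the 6 lower, with a log2 ratio of -6.68.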

How the data were processed

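RNA was measured by sequencing in 10 root libraries, 1 per treatment. The authors deposited whole-number counts per gene ID and, in a second table, FPKM for the same IDs and libraries. The submitters' processing notes list TopHat2 2.0.12 and Bowtie2 2.0.6 with no role; for the counter, genome build, annotation, filters and strand setting the sources used here give nothing. Deposited FPKM equalled counts divided by library total and by 1 length per ID (whole within 0.01 bp for all 107370 IDs with a count). IDs come without gene names or sequences, and no annotation was used. Every row named a gene, and 0 columns lacked a sample.

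CPM was computed by column total. Cadmium and iron were fitted together on 6 libraries (iron supply as 3 levels plus cadmium, 2 residual degrees of freedom) with edgeR 4.0.16 in R 4.3.3: TMM, filterByExpr, quasi-likelihood test, Benjamini-Hochberg over all IDs tested. Iron was the mean of both FeCl3 coefficients. The salts were compared over 8 libraries with no covariate. Alternatives used DESeq2 1.42.0, its size factors in edgeR, other filters, limma 3.58.1 on log2(FPKM + 0.1) and log2(FPKM + 1), other libraries, covariates and thresholds, and each library left out in turn. Fits were also run on simulated data with planted changes. The share recovered is not given here, so 0 calls are not read as the absence of a response. IDs named for level were, with and without LC, the 5 highest by mean FPKM, the 2 most and 2 least variable, and those next to 5 CPM; IDs named for a comparison were, in each class and direction, the one with the smallest p that moved the same way in every pair. Exceptions are marked. Depth and counting intervals stand in the results and cover counting error only. The members and lists were chosen with earlier results of these data known.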

Additional observations from a re-analysis of the deposited data

Results flagged for a closer look

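Among groups of 4 libraries of the same iron salt, 66 groups were examined, those of the named IDs and of the members' summed CPM, and in 10 the highest library stood apart from the other 3 by Dixon's test. Chance flags about 1 in 20 groups, but several of these IDs were named for a wide spread or a small p and the 4 libraries of a salt differ in treatment, so the count of 10 is not a test. No explanation was tested.

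Among the Fe2(SO4)3 libraries, 4 of the 10 were highest in the library coded B50CK. TraesCSU01G081000 had 175.0 CPM there, against 49.4 to 50.7 CPM in the other 3 libraries. TraesCSU01G210100 had 105.9 CPM, against 1.48 to 10.2 CPM. TraesCSU01G036600 had 127.5 CPM, against 0.705 to 3.08 CPM. TraesCSU01G361500LC had 15.6 CPM, against 1.23 to 3.01 CPM. TraesCSU01G021600 stood apart in the library coded B50Cd, at 2613 CPM against 1354 to 1526 CPM. TraesCSU01G121800LC stood apart in the library coded B200Cd, at 36.6 CPM against 4.31 to 9.07 CPM.

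Among the FeCl3 libraries, the 4 that stood apart were highest with 200 µM FeCl3 and cadmium. TraesCSU01G121800LC had 91.9 CPM there and no count in the other 3 libraries. TraesCSU01G250200, just outside the members, had 20.6 CPM, against 0.165 to 2.73 CPM. TraesCSU01G259400LC, also just outside, had 13.0 CPM, against 0.911 to 1.15 CPM. TraesCSU01G283400LC, named after its values were seen, had 15 CPM, against 0.273 to 0.561 CPM.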

How the results depend on the processing

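Each treatment has 1 library, so the cadmium and iron fit left 2 residual degrees of freedom, and counts near the floor of 3 limit low members. A replicate block could not be fitted, as replicates carry no number in the labels; the cadmium pairs are matched by iron supply, a term of the fit, and without that term edgeR again called 0 members (0.0273% of IDs of at least 5 CPM). Members called for cadmium at an adjusted p of 0.05 numbered 0 with edgeR, 15 with DESeq2, 19 without a filter (6.84% of IDs of at least 5 CPM), 1 with limma on log2(FPKM + 1) (0.0859%), 12 and 0 with the Fe2(SO4)3 libraries added by title code (3.33%) and by treatment text (0%), and 0 to 14 with a library left out. For iron they numbered 0 with edgeR, 9 with DESeq2, 11 without a filter (4.75%) and 0 to 20 with a library left out. For salt the count was 0, and 0 to 1 with a library left out. The cause was not tested.

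Members at least 2-fold higher with cadmium in every pair numbered 7; there were 1 at 4-fold, 13 and 3 among members of at least 2 and 10 CPM, and 10 to 16 with a library left out, which removes a pair. The count lower with cadmium was 1; it was 0 at 4-fold, 4 and 0 at 2 and 10 CPM, 2 with a pseudocount of 0.1, and 4 to 7 with a library left out. The count higher with iron was 3; it was 0 at 4-fold, 6 with TMM library sizes, 5 with a pseudocount of 0.1, and 3 to 25 with a library left out. The count lower with iron was 2; it was 0 at 4-fold, with TMM library sizes and at 10 CPM, and 2 to 15 with a library left out. The count higher with sulfate was 1; it was 0 at 4-fold and at 10 CPM, and 1 to 3 with a library left out. The count lower with sulfate was 0, and 0 to 5 with a library left out. For cadmium and iron, leaving a library out removes at least 1 pair and so loosens the rule for every ID. Shares over all IDs are not given beside the counts of this paragraph, and the number of members changes with the CPM threshold. The counts are therefore not read as a result about the members. Members without LC numbered 239 at 2 CPM and 100 at 10 CPM, and LC members 69 and 13.

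Of 154 alternative values with an adjusted p for the log2 folds of IDs named in the comparisons, 0 reversed. These IDs were named for moving the same way in every pair or not overlapping between salts, or after their values were seen. Most alternatives reuse the same libraries, so the absence of reversals was largely fixed in advance and is no test. A total of 27 values passed an adjusted p of 0.05 that the reported value did not (16 for cadmium, 10 for iron, 1 for salt).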
